A study of Mus musculus with 7 samples.

Results

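The guanylate-binding proteins (GBPs) examined here were the products of 8 mouse genes, Gbp2, Gbp3, Gbp4, Gbp5, Gbp6, Gbp7, Gbp8 and Gbp9, which were chosen by name. All 8 were found, by Ensembl identifier, among the 55414 genes of the table of raw counts. The counts came from bulk RNA-seq of Paneth cells (PCs), which sit at the bottom of the crypts of the small intestine and secrete antimicrobial granules. PCs had been sorted from C57BL/6J mice 15 h after an injection of phosphate-buffered saline (PBS, 3 libraries) or of tumour necrosis factor (TNF, a pro-inflammatory cytokine, 4 libraries), each library from another mouse. Neither group carried an allele or a treatment other than its injection in the labels, and no source used here gives the dose or the sex and age of the mice. The comparison asks how TNF changes the transcriptome of PCs.

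GBPs are large GTPases of the dynamin superfamily that are best known as products of interferon-gamma stimulated genes. After GTP binding they assemble into coats on the vacuoles and outer membranes of intracellular bacteria and parasites, and some carry a C-terminal lipid anchor that is attached by prenylation enzymes. On such membranes they act together with immunity-related GTPases and with proteins of the autophagy machinery, and they promote the sensing of bacterial products by inflammasome caspases. PCs themselves are known for guarding the crypt and its stem cells against microbes.

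Library depth ran from 15511455 to 19193721 counts and did not differ detectably between the groups (exact permutation p = 0.429, two-sided, where 35 splits allow no p under 0.0286). Values are given as CPM, counts per 1e6 after TMM scaling of the library sizes, which balances the libraries on the bulk of their genes. PC markers fixed for this comparison were abundant in every library. Their 9 genes, among them Lyz1, Mmp7 and Defa24, summed to between 164754 and 264560 CPM after PBS and to between 159119 and 285257 CPM after TNF. Mmp7 and Nupr1 were called higher and Clps, Habp2 and Wnt3 lower. Stromal markers summed to at most 0.447 CPM and erythroid markers to at most 0.235 CPM in any library. Of the 13 leukocyte markers, Cd3e, Nkg7 and Gzmb, among others, had 0 counts in all libraries, and the whole list summed to 13.3 to 28.2 CPM after PBS and 17.4 to 20.2 CPM after TNF. Of the 4 of these that were tested, Ptprc was called lower, with overlapping groups (11.4 to 26.2 CPM after PBS, 6.24 to 12.7 CPM after TNF, and highest in PBS 2). S100a9, a neutrophil gene, was at 0 in all PBS libraries and at 5.91 ± 1.99 CPM (SD, n = 4) after TNF, and passed the filter on low counts through the TNF libraries alone. Cd68 (mean CPM 1.37 to 2.85) and Itgam (0.78 to 0.849) were not called (edgeR adjusted p = 0.125 and 0.851). Among leukocyte markers too low to be tested, Gzma had 0 counts after PBS and 3, 7, 8 and 2 counts in TNF 1 to 4. Csf1r went from 1 to 14 counts over the groups, and Adgre1 from 16 to 8. The 5 endothelial markers summed to 3.39 to 4.17 CPM after PBS and to 8.43 to 10.8 CPM after TNF. Vwf was called higher (mean CPM 2.3 to 8.52, edgeR adjusted p = 9.90e-06), Plvap was not called (1.49 to 1.23, adjusted p = 0.671), and Kdr was at 0 in every library. Markers of enterocytes, the absorptive cells, summed to 89.1 to 178 CPM after PBS and 53.4 to 68.1 CPM after TNF. Of the 7 that were tested 5 were called lower, against 30.1% of all tested genes. Of these 5, however, Apoa1, Apoa4, Rbp2 and Sis passed the filter on low counts through their PBS libraries and so had to differ. The other one, Fabp2, went from a mean CPM of 49.9 to 6.1, while Slc5a1 was called higher (38.7 to 53.5) and made up most of the sum after TNF. The part of these cells in the results on GBPs was not tested. Since the cells were measured in bulk, fewer cells that express a gene and less of its RNA per cell cannot be told apart.

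The 8 genes lie in a pair of clusters (coordinates from the GENCODE M39 annotation of GRCm39). On the plus strand of chromosome 3, Gbp5 (ENSMUSG00000105504, chr3:142199739-142228105) is followed by Gbp7 (ENSMUSG00000040253, chr3:142236044-142255910), Gbp3 (ENSMUSG00000028268, chr3:142265731-142278979) and Gbp2 (ENSMUSG00000028270, chr3:142326349-142343779), with Gbp2b between the last 2. On the minus strand of chromosome 5 lie Gbp8 (ENSMUSG00000034438, chr5:105162016-105287452), Gbp9 (ENSMUSG00000029298, chr5:105224332-105287452), Gbp4 (ENSMUSG00000079363, chr5:105263633-105287609) and Gbp6 (ENSMUSG00000104713, chr5:105418568-105443751). Coding sequences of the 4 members on chromosome 5 were 90.6% to 92.9% identical to each other (6 pairs, median 90.8%). Those of the 4 on chromosome 3 were further apart, at 67% to 79.6% (median 67.3%), with Gbp3 and Gbp7 as the closest pair. Between the chromosomes, identity ran from 65.8% to 76.5% over 16 pairs. The chromosome 5 genes are thus close copies, and reads that match several of them depend on a counting rule that no source used here gives.

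To see how much of each gene could be counted without doubt, every stretch of 75 bases of its canonical transcript was looked up in the transcripts of all other genes. Gbp6 stood apart, since 84.5% of its stretches also occur in Gm43302, a predicted gene that overlaps it, and 65.2% in Gbp10. The value of Gbp6 is therefore uncertain. In the other members the shared part was small, from 0.0965% in Gbp5 to 11.3% in Gbp7 and 12.5% in Gbp8, and that of Gbp7 lay mostly in the predicted gene Gm43802. Gm43302 had 0 counts in all libraries.

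Upstream sequences were looked up because interferon and NF-kB signalling act on GBP promoters through short known motifs. The RefSeq promoter table (GRCm38.p6) holds 4 of the 8 members, Gbp2, Gbp3, Gbp5 and Gbp7. Gbp4, Gbp6, Gbp8 and Gbp9 were not matched, so only members on chromosome 3 are shown and those on chromosome 5 could not be compared. Each line gives the 250 bases before the transcription start, plus strand, 5′ to 3′: chr3:142620413-142620662 for Gbp2, chr3:142559794-142560043 for the first of 2 starts of Gbp3, chr3:142496684-142496933 for Gbp5 and chr3:142530086-142530335 for Gbp7. Capitals mark matches on either strand to the interferon-stimulated response element (ISRE, searched as GAAA, any 2 bases and GAAA), to the interferon-gamma activated site (GAS, letters TTCNNNGAA) and to the NF-kB consensus.

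Gbp2: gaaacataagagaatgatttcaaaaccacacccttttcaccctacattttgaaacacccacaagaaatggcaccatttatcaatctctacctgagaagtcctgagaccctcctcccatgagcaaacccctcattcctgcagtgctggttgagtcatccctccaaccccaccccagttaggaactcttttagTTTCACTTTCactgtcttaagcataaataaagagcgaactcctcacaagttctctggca

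Gbp3: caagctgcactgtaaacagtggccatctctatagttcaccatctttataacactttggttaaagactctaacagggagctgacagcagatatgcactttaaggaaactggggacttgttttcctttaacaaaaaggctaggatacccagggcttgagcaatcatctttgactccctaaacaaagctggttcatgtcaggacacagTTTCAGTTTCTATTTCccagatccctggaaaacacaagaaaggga

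Gbp5: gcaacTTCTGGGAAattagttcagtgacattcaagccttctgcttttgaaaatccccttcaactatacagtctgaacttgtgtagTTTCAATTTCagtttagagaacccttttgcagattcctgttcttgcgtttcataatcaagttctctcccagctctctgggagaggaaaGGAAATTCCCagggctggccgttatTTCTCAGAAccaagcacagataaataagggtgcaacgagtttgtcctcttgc

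Gbp7: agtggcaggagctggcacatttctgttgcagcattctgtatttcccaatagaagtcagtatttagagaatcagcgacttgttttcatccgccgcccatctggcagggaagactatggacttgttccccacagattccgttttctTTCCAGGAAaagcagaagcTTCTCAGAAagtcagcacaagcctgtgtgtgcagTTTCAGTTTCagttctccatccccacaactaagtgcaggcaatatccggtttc

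An ISRE match is present in each of the 4 sequences, on the minus strand. It lies 59 to 50 bases before the start in Gbp2, 53 to 44 bases before it in Gbp7 and 165 to 156 bases before it in Gbp5. Gbp3 holds an overlapping pair, at 45 to 36 and at 39 to 30 bases before the start, while the 250 bases before its other start hold none of the 3 motifs. GAS matches are present in Gbp5 (from 245 and from 52 bases before the start) and in Gbp7 (from 106 and from 87 bases before it). Only Gbp5, among the 4 members, holds a match to the NF-kB consensus, 77 to 68 bases before the start. Of 32851 promoters of the table, 300 bases long with 50 bases after the start, 3.44% hold the ISRE letters, 8.3% the GAS letters and 4.51% the NF-kB consensus. The ISRE letters also occur in Gbp2b, 137 to 128 bases before the start, and that gene had 0 counts in all 7 libraries.

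All 8 GBP genes rose after TNF. In the fit across 14329 genes (edgeR quasi-likelihood test, Benjamini-Hochberg adjusted p under 0.05), 29.5% of genes were called higher after TNF and 30.1% lower, and the median log2 fold change was 0.00. Every TNF library stood above every PBS library for each of the 8 genes, which was so for 29.9% of all tested genes. The count of 8 cannot be read as it stands, since Gbp4, Gbp5, Gbp6 and Gbp8 passed the filter on low counts through their TNF libraries alone and so had to differ. Gbp2, Gbp3, Gbp7 and Gbp9 passed it in both groups, and these 4 were called higher as well.

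**Figure D1:**
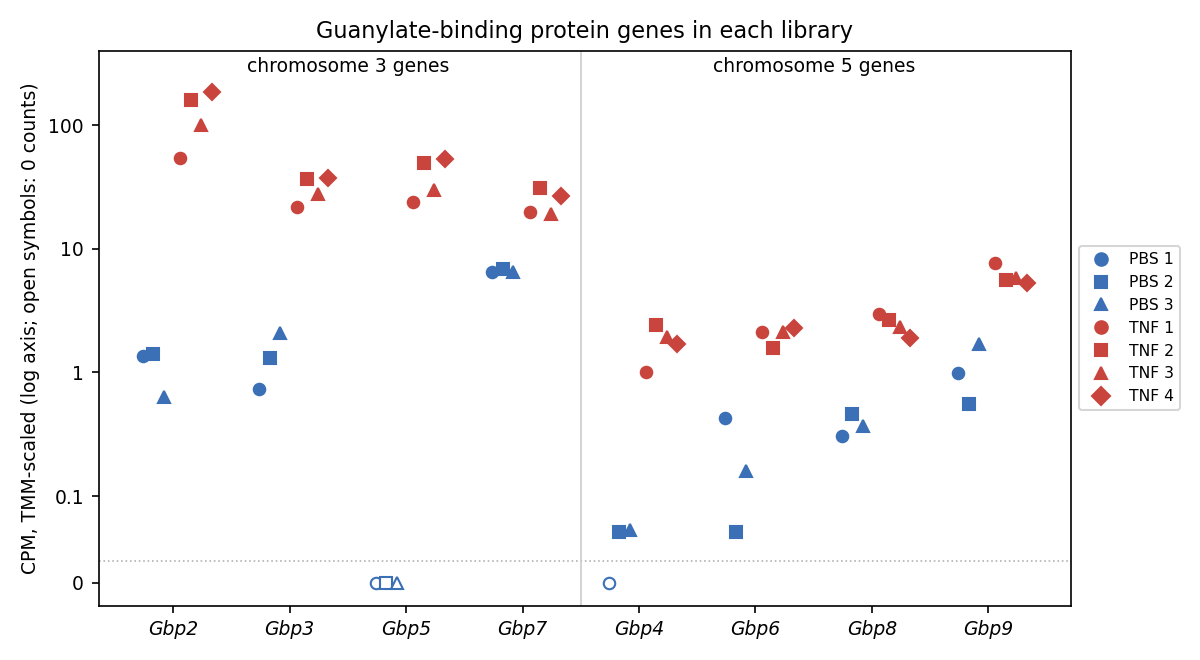
CPM of the 8 GBP genes in each of the 3 PBS (blue) and 4 TNF (red) libraries, on a log axis, with libraries at 0 counts drawn as open symbols under the dotted line. For each gene the red symbols lie above the blue ones. Gbp2 spans 54.3 to 187 CPM after TNF, and Gbp5 is at 0 in all PBS libraries.

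Gbp2, which coats Toxoplasma vacuoles and bacterial membranes and carries a lipid anchor, was low in all PBS libraries and well above them in each TNF library. Its level was 1.36, 1.42 and 0.636 CPM in PBS 1 to 3, and 54.3, 161, 99.5 and 187 CPM in TNF 1 to 4. In raw counts this was 62 reads in the PBS group and 8437 in the TNF group. TNF 1 was the lowest and TNF 4 the highest of the TNF libraries, and the groups were far apart, with the lowest TNF library 38.2-fold above the highest PBS library. Mean CPM went from 1.14 ± 0.437 (SD, n = 3) to 126 ± 60.1 (SD, n = 4). On the log2 scale the fitted rise was 6.78 ± 0.65 (SE, edgeR adjusted p = 1.23e-04). Among all tested genes Gbp2 ranked at place 77 by log2 fold change.

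Gbp5, another member with a lipid anchor, is known for its part in inflammasome activation. It had 0 counts in each of the 3 PBS libraries and 428, 847, 563 and 810 counts in TNF 1 to 4, which corresponds to 23.9, 49.9, 30.1 and 52.9 CPM. It thus went from not detected to a level that was clear in every TNF library. Against a floor of 3 counts over the PBS group, Gbp5 was at least 702-fold higher after TNF (edgeR adjusted p = 6.80e-06). The bound was 450-fold without PBS 2 and 458-fold without PBS 3, since the floor then rests on fewer libraries. Floors and counting intervals cover counting error only, since no source names molecular identifiers.

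Gbp3, the neighbour of Gbp7 and Gbp2b, had PBS values of 0.741, 1.32 and 2.07 CPM and TNF values of 21.6, 36.5, 27.7 and 37.1 CPM. The order among TNF libraries was that of Gbp2, with TNF 1 lowest and TNF 4 highest (TNF 2 was highest on total counts alone), and the lowest TNF library was 10.4-fold above the highest PBS library. Its log2 fold change of 4.45 ± 0.30 (SE) had the smallest adjusted p among the GBP genes (edgeR, 8.49e-08).

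Gbp7, which has been linked to the delivery of autophagy and oxidase proteins to vacuoles with bacteria, was detected well without TNF. It was at 6.54, 6.86 and 6.52 CPM in the PBS libraries, within a narrow band, and at 19.8, 31, 19.1 and 26.6 CPM in TNF 1 to 4. Here TNF 3 and TNF 1 were low and close to each other, and the lowest TNF library was 2.78-fold above the highest PBS library. Mean CPM rose from 6.64 ± 0.194 (SD, n = 3) to 24.1 ± 5.69 (SD, n = 4). With 1.86 ± 0.19 on the log2 scale (SE, edgeR adjusted p = 1.97e-06), Gbp7 changed least of the 8 genes, and 879 of all tested genes had a larger value.

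**Figure D2:**
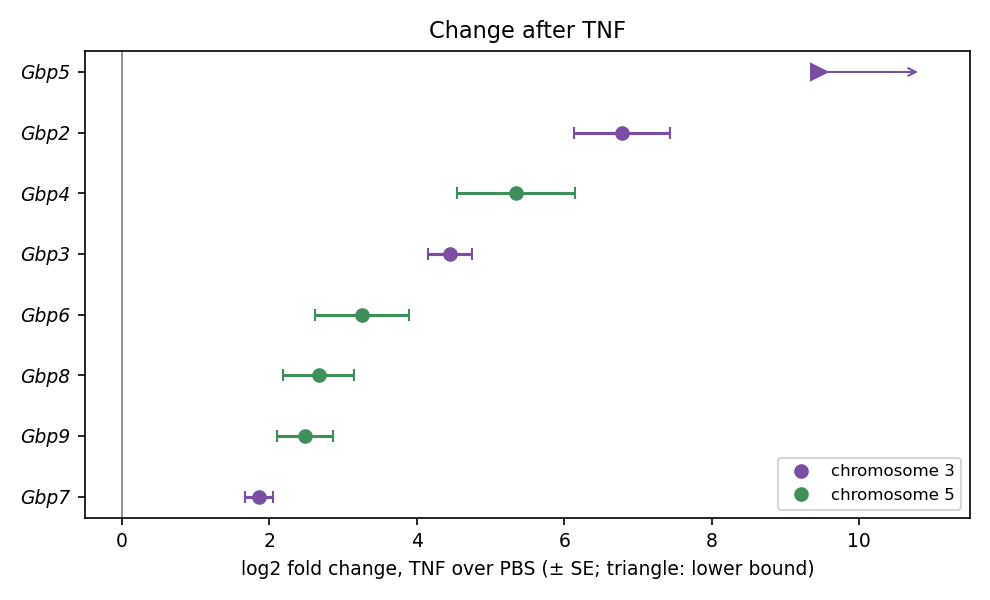
Log2 fold change (TNF over PBS) of the 8 GBP genes with its standard error, from the edgeR fit, with purple for genes on chromosome 3 and green for genes on chromosome 5. Gbp5 is drawn at its lower bound of 702-fold, with an arrow, and Gbp4, at 5.35, rests on 2 reads in the PBS libraries. The values run from 1.86 in Gbp7 to 6.78 in Gbp2 and past the bound in Gbp5, and genes of both chromosomes are mixed in the order.

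The 4 genes on chromosome 5 rose as well, on few reads. Gbp4, for which no role is given here, had 0, 1 and 1 counts in PBS 1 to 3 and 18, 41, 36 and 26 counts in TNF 1 to 4, or 1.01 to 2.41 CPM. With 2 against 121 counts, the ratio of the scaled totals was 48.1, with a 95% Clopper-Pearson interval from 13 to 402 (edgeR adjusted p = 5.50e-05). The wide interval reflects the 2 reads in the PBS libraries. Gbp9, which was seen on Toxoplasma vacuoles like Gbp2, had 0.988, 0.559 and 1.69 CPM after PBS and 7.66, 5.59, 5.83 and 5.29 CPM after TNF. TNF 1 was its highest library, the reverse of Gbp2. Its log2 fold change was 2.49 ± 0.38 (SE, edgeR adjusted p = 6.10e-05).

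Gbp8, a close copy of Gbp4 with a shorter canonical coding sequence (1575 against 1893 bases), was at 0.309, 0.458 and 0.371 CPM after PBS and at 2.96, 2.65, 2.35 and 1.9 CPM after TNF. The groups did not overlap, and the log2 fold change was 2.67 ± 0.48 (SE, edgeR adjusted p = 2.63e-04). Gbp6, the member that shares most of its sequence, was at 0.432, 0.0508 and 0.159 CPM after PBS and at 2.12, 1.59, 2.14 and 2.29 CPM after TNF. The PBS values rest on 7, 1 and 3 reads, and PBS 1 was the highest of them. The log2 value of its rise, 3.26 ± 0.64 (SE, edgeR adjusted p = 5.45e-04), went to 4.20 when PBS 1 was left out.

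The 3 other annotated genes of the family were too low to be tested. Gbp2b had no read in any library. Gbp10, whose coding sequence is 98.4% identical to that of Gbp6, had 0 counts after PBS and 4, 4, 8 and 3 counts after TNF, at least 5.03-fold higher by the floor of 3 counts. Gbp11 had 0, 9 and 6 counts after PBS and none in the TNF libraries.

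The make-up of the family changed along with its level. To compare genes with each other, CPM were divided by the length of the union of annotated exons in kb. In the PBS libraries the order was led by Gbp7 (1.11 ± 0.0323 CPM per kb, SD, n = 3), which stood above all others in each library. Gbp2 (0.445 ± 0.171), Gbp3 (0.324 ± 0.156), Gbp9 (0.112 ± 0.0593) and Gbp8 (0.0841 ± 0.0166) came next, and the ranges of neighbours in this order overlapped, though Gbp3 was above Gbp9 in each of the 3 libraries. Gbp6 (0.0315 ± 0.0289) was lower than Gbp8 in all 3 libraries, and Gbp4 and Gbp5 were at or near 0.

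After TNF the order was led by Gbp2 (49 ± 23.5 CPM per kb, SD, n = 4), above all others in each library. Gbp3 (7.23 ± 1.76), Gbp5 (5.38 ± 1.97) and Gbp7 (4.03 ± 0.95) came next with overlapping ranges, though Gbp3 was above Gbp5 in each of the 4 libraries. Gbp9 (0.63 ± 0.11) and Gbp8 (0.547 ± 0.101) overlapped with each other, and so did Gbp6 (0.3 ± 0.0451) and Gbp4 (0.182 ± 0.0603). All 4 genes of chromosome 3 were thus above all 4 of chromosome 5 after TNF. The place of Gbp5 depended on the length used. With the longest annotated transcript in place of the union of exons, its level was 10.4 ± 3.82 CPM per kb, above the 7.52 ± 1.83 of Gbp3.

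Summed over the 8 genes, the level went from 2.03, 2.19 and 2.11 CPM per kb in the PBS libraries to 34.8, 85.2, 54.3 and 95.1 in TNF 1 to 4. Gbp7 made up 52.6% ± 1.11 (SD, n = 3) of this sum after PBS and 6.53% ± 2.08 (SD, n = 4) after TNF, although its own level rose. Gbp2 went from 21.1% ± 8.09 to 70.8% ± 6.9, and Gbp5 from 0% to 8.18% ± 0.866. The groups did not overlap in these shares. The share of Gbp3 overlapped between the groups, with 8.58% to 23.1% after PBS and 9.19% to 14.6% after TNF. The shares of Gbp8 and Gbp9 were lower in every TNF library than in every PBS library, from 3.97% to 0.997% and from 5.33% to 1.16% on average. With the longest transcript as the length, the share of Gbp5 after TNF was 14.4% ± 1.28, and that of Gbp9 was 8.38% after PBS and 1.79% after TNF.

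**Figure D3:**
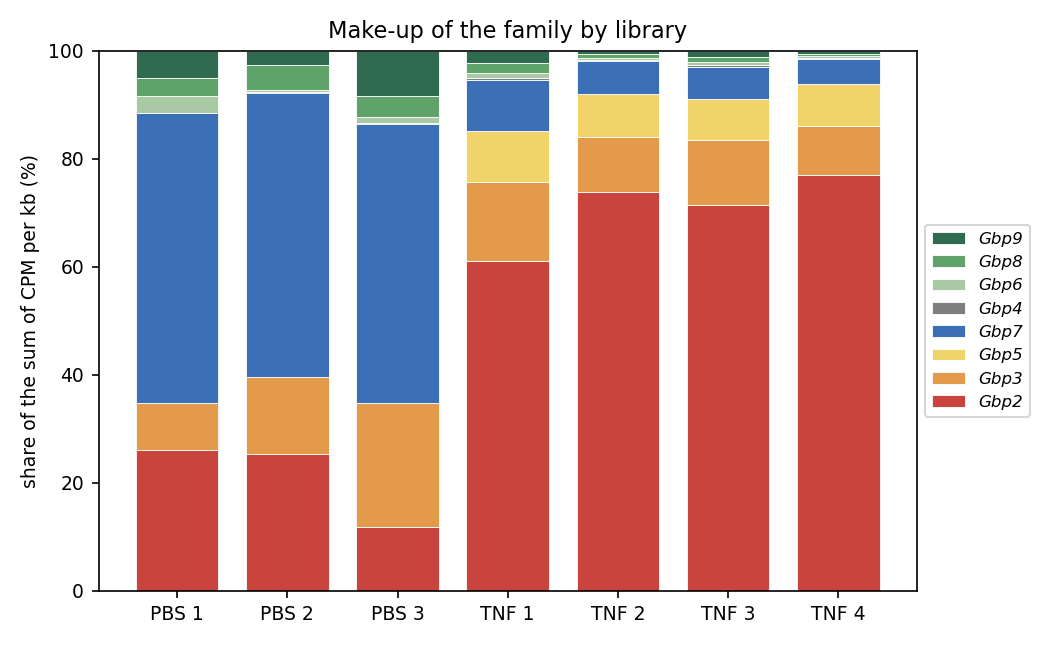
Share of each GBP gene (%) in the sum of CPM per kb over the 8 genes, 1 stacked bar per library. Gbp7 (blue) fills 51.6% to 53.8% of the PBS bars and 4.67% to 9.51% of the TNF bars, and Gbp2 (red) fills 11.8% to 26.1% and 61.1% to 76.9%.

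TNF libraries differed from each other, and not in the same way for all members. By the coefficient of variation Gbp2 varied most (47.9%, n = 4, and 3.45-fold between its lowest and highest TNF library), followed by Gbp5 with 36.6% and 2.21-fold. Relative to the mean of the other TNF libraries, TNF 1 held 0.364 of the CPM of Gbp2, 0.639 of that of Gbp3, 0.54 of that of Gbp5 and 0.5 of that of Gbp4. For Gbp9 and Gbp8, by contrast, TNF 1 was the highest library, at 1.37 and 1.29 of the mean of the others. Gbp6 varied least, with 15%.

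The PC marker sum was also lowest in TNF 1, at 159119 CPM, against 227418, 197423 and 285257 CPM in TNF 2 to 4, the order of Gbp2, Gbp3 and Gbp5. The order rests in part on the TMM factors (1.085, 0.926, 0.974 and 0.843 in TNF 1 to 4), and on total counts alone TNF 2 was the highest library for Gbp3 and Gbp5, with TNF 1 still the lowest. The part of this in the spread of the GBP genes was not tested, and 4 libraries are too few for a correlation. Without TNF 1 the log2 fold change of Gbp2 was 7.03, close to the value with all libraries.

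**Figure D4:**
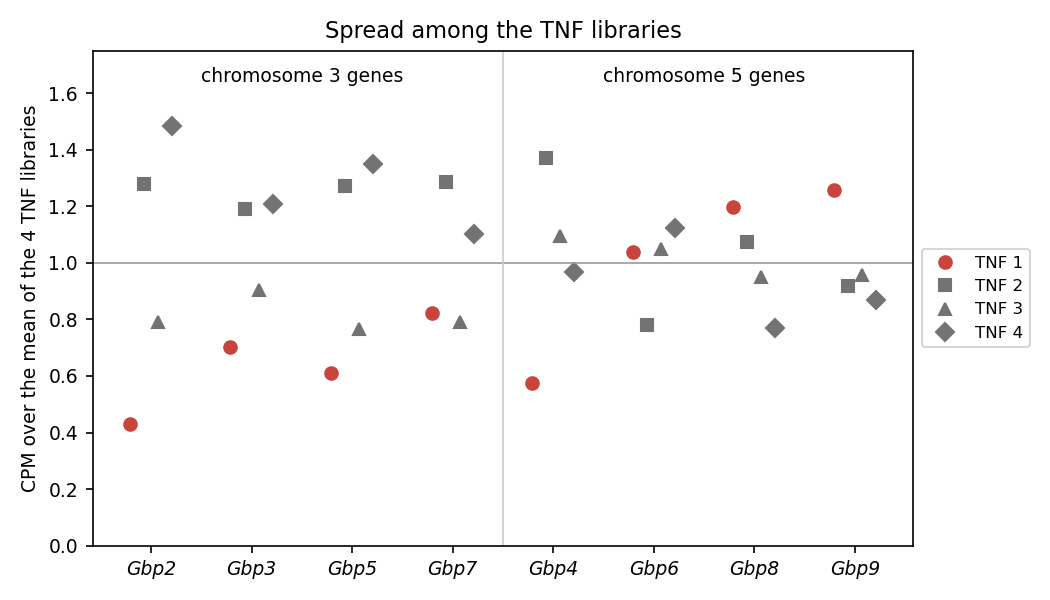
CPM of each GBP gene in each TNF library, divided by its mean over the 4 TNF libraries, with TNF 1 in red. TNF 1 lies lowest for Gbp2, Gbp3, Gbp5 and Gbp4, and highest for Gbp8 and Gbp9.

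The genes next to the clusters were looked up as well. On chromosome 3, Pdlim5, before the cluster, fell (log2 fold change -0.62 ± 0.11, SE, edgeR adjusted p = 3.21e-04). Kyat3 and Gtf2b, after the cluster, had log2 fold changes of 0.00 ± 0.22 and 0.04 ± 0.16 (adjusted p = 0.99 and 0.825), and Bmpr1b had no reads. On chromosome 5, Zfp951 had a log2 fold change of 0.37 ± 0.43 (adjusted p = 0.474), Abcg3 had no reads, and Lrrc8b, a subunit of volume-regulated anion channels beyond Gbp11, rose by 1.54 ± 0.11 (adjusted p = 5.52e-08). Of the 5 neighbours that were tested, 1 was thus called higher and 1 lower, close to the shares over all tested genes (29.5% and 30.1%).

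Interferon-gamma is the classical inducer of GBP genes, so the genes of its pathway were examined, against a background of 59.6% of tested genes called in either direction. Ifng, Ifnb1, Ifnl2, Ifnl3 and Ifna4, the 5 interferon genes that were looked up, had 0 counts in all 7 libraries, which allows up to 3 counts over each group. Of the 6 receptor genes 5 were called higher and none lower (29.5% and 30.1% over all tested genes), with a list median of 1.30. Ifngr1, the ligand-binding chain for interferon-gamma, was at 49.9, 46.2 and 45.1 CPM after PBS and at 205, 180, 208 and 204 CPM after TNF. Its log2 fold change was 2.08 ± 0.11 (SE, edgeR adjusted p = 2.61e-09), and that of its partner chain Ifngr2, the largest of the list, 2.50 ± 0.13 (adjusted p = 2.85e-09). Il10rb, the smallest, had 0.14 ± 0.15 (adjusted p = 0.446).

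Of 14 kinases and transcription factors upstream of GBP genes, 11 were called higher and 2 lower (29.5% and 30.1% over all tested genes). Their median log2 fold change was 1.15. Irf1, an activator of ISRE elements, rose from a mean CPM of 58.1 ± 5.8 (SD, n = 3) to 101 ± 2.73 (SD, n = 4), and Irf8 from 64.7 ± 7.98 to 93.6 ± 13.7, with log2 fold changes of 0.79 and 0.53 (edgeR adjusted p = 1.39e-05 and 0.00291). Relb, an NF-kB subunit, had the largest value (2.92 ± 0.13) and Irf2, known as an antagonist of Irf1, the smallest (-1.72 ± 0.15, adjusted p = 4.76e-07).

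Feedback inhibitors of interferon and NF-kB signalling were called higher in all 5 cases (29.5% of all tested genes), with a median of 4.37. Usp18, which limits type I interferon signalling, went from 1.27 ± 0.727 to 49.9 ± 4.74 CPM and had the largest log2 fold change (5.30 ± 0.27, SE, edgeR adjusted p = 5.77e-09). Socs1, which restrains the kinases of the interferon receptors, went from 1.74 ± 0.299 to 14.2 ± 1.6 CPM and had the smallest (3.02 ± 0.22, adjusted p = 6.52e-08).

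Prenylation enzymes, which attach the lipid anchors of some GBPs, moved by small amounts. Of 6 genes 4 were called higher and 1 lower, with a median of 0.36, where 29.5% of all tested genes were called higher and 30.1% lower. Pggt1b, the beta subunit of the enzyme that adds geranylgeranyl groups, had a mean CPM of 58.4 ± 5.37 (SD, n = 3) in the PBS and 73.4 ± 5.36 (SD, n = 4) in the TNF libraries. The log2 difference was 0.33 ± 0.11 (SE, edgeR adjusted p = 0.0153). Fntb, the beta subunit of farnesyltransferase, fell (-0.56 ± 0.16, adjusted p = 0.00696), a call that was lost with the replicate block (adjusted p = 0.0591), while Rce1, the protease of the next step, had the largest value (0.58 ± 0.13, adjusted p = 0.00165). With total counts as the only scaling, which moves the median of all tested genes to -0.16, 1 gene of the list was called higher and Pggt1b had an adjusted p of 0.295. Pggt1b also lost its call when PBS 2 or PBS 3 was left out and with the replicate block (adjusted p = 0.0726).

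Among 10 genes of ATG8 conjugation, the step of autophagy that helps GBPs reach vacuoles, 7 were called higher and 1 lower (all tested genes: 29.5% and 30.1%), with a median of 0.53. Gabarapl1 had the largest log2 fold change (1.53 ± 0.15, SE, edgeR adjusted p = 1.51e-06) and Atg7, the activating enzyme, the smallest (-1.04 ± 0.12, adjusted p = 7.12e-06). Gabarapl2 had 0.50 ± 0.16 (adjusted p = 0.0168), with overlapping groups, and lost its call when PBS 3, TNF 3 or TNF 4 was left out, with total counts as the only scaling (adjusted p = 0.096) and with the replicate block (adjusted p = 0.108).

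Immunity-related GTPases, the smaller GTPases that act with GBPs on vacuoles, were also examined. Of 8 symbols 7 were in the table and 6 were tested, of which 5 were called higher and none lower (29.5% and 30.1% over all tested genes), with a median of 1.48. Tgtp1 and Iigp1 passed the filter on low counts through their TNF libraries and so had to differ. Irgm1 and Irgm2 rose by 0.86 each (edgeR adjusted p = 3.05e-05 and 5.08e-04), and Igtp, also known as Irgm3, by 2.10 ± 0.24 (adjusted p = 5.50e-06). Tgtp1 had the largest log2 fold change. Its 2 reads in PBS 2, with none in the other PBS libraries, against 71 reads after TNF gave a ratio of 28.2 (95% Clopper-Pearson interval 7.53 to 238, edgeR adjusted p = 0.00202). The fitted log2 value, 4.64, was 7.22 without PBS 2, which leaves the PBS group at 0. Tgtp1 did not pass the filter of 1 CPM in 3 libraries, nor that on low counts without TNF 2, TNF 3 or TNF 4. Tgtp2 had the smallest, -0.65 ± 0.65 (adjusted p = 0.406). Igtp was at 12.7, 24.1, 13.6 and 19.1 CPM in TNF 1 to 4, so that TNF 1 was its lowest TNF library, as for Gbp2.

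In the list of atlastins and Mx proteins, relatives of the GBPs in the dynamin superfamily, 3 of 5 genes were called higher and none lower, with a median of 1.04, against 29.5% of all tested genes called higher and 59.6% called in either direction. Mx1 and Mx2 passed the filter on low counts through their TNF libraries and so had to differ. Mx1, an antiviral protein, had the largest log2 fold change, from 0, 1 and 0 counts after PBS to 117, 62, 20 and 24 counts after TNF, a ratio of 177 (95% Clopper-Pearson interval 31.5 to 7033, edgeR adjusted p = 5.99e-05). The fitted log2 value, 6.99, was 8.80 without PBS 2, which leaves the PBS group at 0, and 6.38 without TNF 1. Here TNF 1 was the highest TNF library, while it was the lowest for Gbp2. Atl1 had the smallest (-0.93 ± 0.47, adjusted p = 0.104).

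Inflammasome genes, which act with GBPs in the response to cytosolic bacteria, moved in both directions. Of 11 genes 8 were tested, 5 were called higher and 3 lower, with a median of 0.42, beside 29.5% and 30.1% of all tested genes. Of those called lower, Nlrp1b passed the filter on low counts through its PBS libraries and so had to differ. Casp4, the caspase that binds bacterial lipopolysaccharide, was at 10.6, 6.41 and 7.42 CPM after PBS and at 76.3, 98.9, 81.1 and 124 CPM after TNF, and had the largest log2 fold change (3.55 ± 0.22, SE, edgeR adjusted p = 5.52e-08). Gsdmd, the pore-forming gasdermin that caspases cleave, rose by 2.90 ± 0.16 (adjusted p = 5.07e-09) and Aim2, a DNA sensor, by 2.86 ± 0.20 (adjusted p = 4.89e-08). Casp1 had 0.38 ± 0.13 (adjusted p = 0.0173) and lost its call when PBS 1, PBS 3 or TNF 3 was left out, with total counts as the only scaling (adjusted p = 0.268) and with the replicate block (adjusted p = 0.0836). Nlrp6, an inflammasome sensor of the intestinal epithelium, had the smallest value (-4.05 ± 0.27, adjusted p = 8.35e-07).

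**Figure D5:**
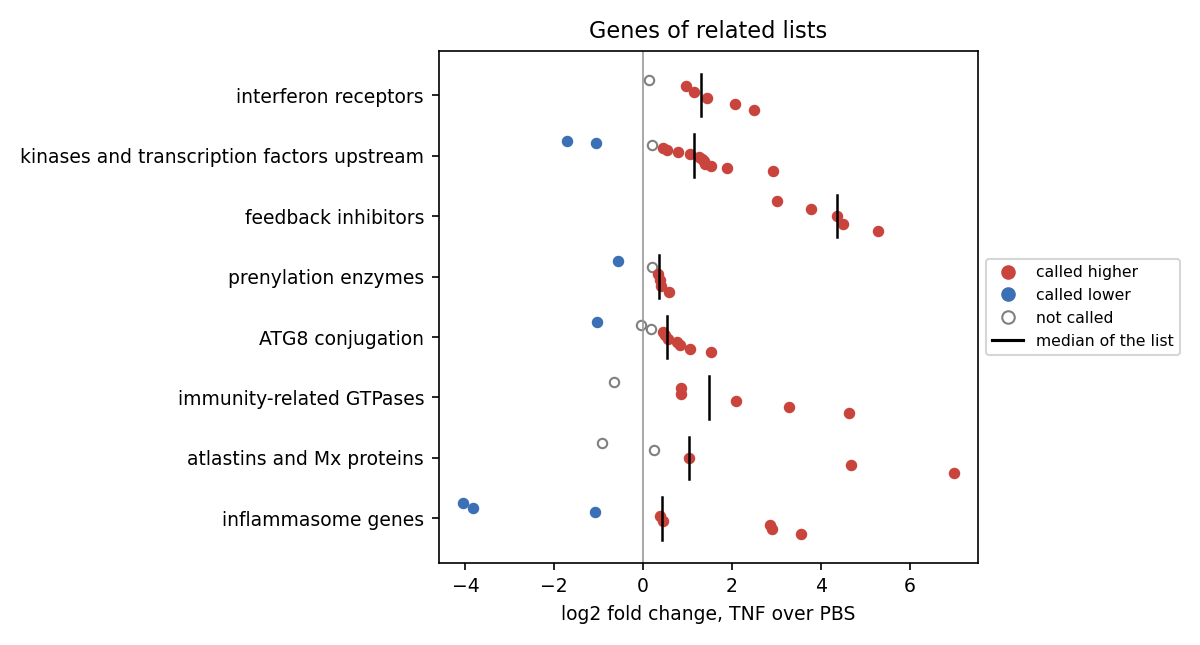
Log2 fold changes (TNF over PBS) of the tested genes of 8 lists related to GBPs, 1 symbol per gene, filled where the gene was called higher (red) or lower (blue). The black line is the median of each list, which runs from 0.36 for prenylation enzymes to 4.37 for feedback inhibitors.

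Among tested genes averaging 10 CPM or more, a search was made for those whose values across the 7 libraries were most like the mean pattern of the 8 GBP genes, by the root mean square difference of centred log2 values. Exoc3l4, a gene of the exocyst-related Sec6 family, was closest, with a difference of 0.07, and went from 2.78, 2.34 and 2.65 CPM to 22.5, 32.2, 25.8 and 34.6 CPM, a log2 fold change of 3.47 that the choice by pattern fixes. Efhd2, Bcar3 and Agpat4 (0.13 each) and Rhoc (0.14) came next, with log2 fold changes between 3.16 and 3.45. The GBP genes themselves lay from 0.50 (Gbp3) to 1.51 (Gbp2) from their own mean. They cannot be ranked against the genes above, which were picked as the closest. The difference also grows with the size of the change, so it does not show by itself that the members had different patterns.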

How the data were processed

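The authors deposited raw counts, whole numbers of reads per gene, with 1 column for each of the 3 PBS and 4 TNF libraries, and all columns were matched to samples by name. The submitters' processing notes name FastQC, Trimmomatic 0.39, STAR 2.7.10a and DESeq2 and the builds mm10 and mm39, with no role given. The counting tool, the gene annotation, the use of strand and the treatment of reads with several matches are not named in any source used here.

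Identifiers were matched to the GENCODE M39 annotation (54749 of 55414, 98.8%), which need not be the annotation behind the counts. TNF was compared with PBS by edgeR 4.0.16 in R 4.3.3 (quasi-likelihood test on the counts, robust, two-sided, filterByExpr with a minimum count of 10, TMM scaling, Benjamini-Hochberg over all 14329 genes tested), after a check of the scripts on simulated data. SEs were derived from the log2 fold change and the F statistic. Where a group had 0 counts, the fold is a bound against 3 counts over that group. Where it had 1 to 3, it is a ratio with its 95% Clopper-Pearson interval. Levels of different genes were compared as CPM per kb of exon union. Lists are described by counts and medians. Likeness to the mean GBP pattern used log2(CPM + 0.5), and left out symbols of Gm with a number or ending in Rik. Gene lists, markers and the rule for named genes (all 8 members, Gbp2b, Gbp10, Gbp11, the first 2 protein-coding neighbours on each side, the largest and smallest change of each list, selected genes of each list, and the 5 genes most like the members) were set with earlier results of these data known, as were the members. Some genes of the lists are not reported here by name. Of the list symbols, 1 (Gm4951) was not matched to an identifier. The alternatives were DESeq2 1.42.0 size factors or total counts only for scaling, the DESeq2 test, 2 other filters, the replicate number as a block, leaving out each library, and the length of the longest transcript.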

Additional observations from a re-analysis of the deposited data

Results flagged for a closer look

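Of 39 values examined in the 4 TNF libraries, 2 had a lowest library that stood apart by Dixon's ratio (gap to the nearest library over the whole range, against the 95% limit for 4 values), and chance alone passes this limit in about 1 of 20 groups. Neither is a GBP gene. Ifngr1, the ligand-binding chain of the interferon-gamma receptor, was at 180 CPM in TNF 2 and at 204 to 208 CPM in the other TNF libraries (ratio 0.87). Pggt1b, a prenylation enzyme subunit, was at 65.4 CPM in TNF 2 and at 75.4 to 76.6 CPM in the others (ratio 0.89). With 3 libraries, the PBS values could not be examined this way.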

How the results depend on the processing

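All 8 GBP genes were called higher under each of the 13 alternatives, 104 of 104 values, and the largest adjusted p was 0.00451, for Gbp6 with the replicate block. Only Gbp2, Gbp3, Gbp7 and Gbp9, with a largest adjusted p of 0.00229 (Gbp2 without PBS 3), bear on stability, since the other members passed the filter through TNF libraries alone. Leaving out 1 library at a time, log2 fold changes ran from 6.48 to 7.03 for Gbp2, 4.18 to 4.85 for Gbp3, 2.78 to 4.20 for Gbp6, 1.72 to 1.94 for Gbp7, 2.56 to 2.83 for Gbp8 and 2.17 to 2.98 for Gbp9, and the bound of Gbp5 from 450 to 794-fold. Genes called higher over the whole table ranged from 3147 (total counts only) to 4410 (no filter).

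Same-numbered libraries showed no shared deviation, with correlations of deviations of -0.299, -0.0314 and -0.174. Differently numbered pairs ran from -0.205 to 0.35. Correlations over so few libraries cannot tell whether the replicate numbers stand for a pairing. With the replicate block 3553 genes were called higher and 3578 lower, against 4229 and 4314 without it.

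With the length of the longest transcript, levels in CPM per kb after TNF were 0.289 for Gbp4, 10.4 for Gbp5, 0.416 for Gbp6, 0.729 for Gbp8 and 1.08 for Gbp9, and after PBS 1.14 for Gbp7, 0.112 for Gbp8 and 0.191 for Gbp9, each moved by more than 1 SD. Of the other named genes, 405 values kept their direction and call, 15 lost the call and 1 gained it. The sign of Il10rb, which was not called, turned with total counts only (-0.02) and without PBS 3, within a range of -0.03 to 0.24 over the 7 fits that left out 1 library. Prenylation enzymes called higher fell to 1 with total counts only and to 2 with the block, where none was called lower, and Atl1 was called lower without TNF 2. The causes were not tested.

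Depth limits Gbp5, Gbp4, Gbp6 and Gbp8 most, which rest on 0, 2, 11 and 21 reads over the PBS group.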
